A study of Sus scrofa with 2 samples.

Results

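Binding of the zinc finger transcription factor ZBTB16 (also called PLZF) was examined at 52 genes of the DNA replication machinery in pig immature spermatogonia. The genes were a list of named replication factors whose rule uses no measured value, but the list was drawn up with earlier results of these data known. Bound means here that both libraries held a peak of the authors' promoter class assigned to the gene, and 22 of the 52 genes were bound. Among the 16509 protein-coding genes with a symbol, 20.8% met the same criterion. The measurement was CUT&Tag, in which an antibody brings a transposase to a chromatin protein and the released fragments are sequenced, deposited as lists of peaks. The 2 libraries, replicate 1 and replicate 2, formed 1 group: wild-type cells labelled as immature spermatogonia, from pig testis, with 100000 cells per library. The labels give neither the animals' age nor whether the libraries came from separate animals or cultures, so differences between them may be technical only. There was no second condition, so the comparisons were between libraries and between groups of genes, as counts beside the share in all genes.

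Before a cell copies its genome, the origin recognition complex (ORC), CDC6 and CDT1 load the MCM2 to MCM7 helicase onto DNA, which is called licensing. The CDC7 kinase with its partner DBF4 then acts on the loaded helicase, and CDC45 and the GINS complex join it to form the active helicase. Primase and polymerase alpha start new strands, polymerases delta and epsilon extend them, and the PCNA clamp, loaded by RFC, holds the polymerases on DNA. In spermatogonia this machinery serves the mitotic divisions that maintain the stem cell pool. Many of its genes are known in other cells as targets of E2F transcription factors.

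Each peak carried a fold enrichment, the authors' ratio of its height to the background of its own library. Whole fragment counts at the summit were recovered from the fold and the p-value of each peak, and intervals on them are exact 95% Poisson intervals for counting error only. Replicate 1 held 10273 peaks and replicate 2 held 7301, of which 60.8% and 64.0% were of the promoter class, which covered up to 3 kb before the transcription start site (TSS). The median promoter peak had 19 fragments at its summit in replicate 1 and 16 in replicate 2. Peaks do not measure expression, so the labelled cell type could not be checked by them. For reference, 1 of 8 germ cell markers was bound (ETV5), and none of 7 Sertoli, 6 Leydig, 5 peritubular and endothelial or 3 blood cell markers was. Signal of an unspecific antibody was not subtracted here, since an IgG control was not analysed.

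Each of the 9 functional classes held at least 1 bound gene. All 3 subunits of RPA, the single-strand DNA binding protein, were bound, as were 5 of 9 genes of origin recognition and licensing and 3 of 6 genes of the MCM2 to MCM7 helicase. Of 3 further MCM proteins 2 were bound, and of 3 enzymes of Okazaki fragment maturation likewise 2. Shares were lower for helicase activation (2 of 7), primase and polymerases (3 of 11), fork protection (1 of 4) and the clamp with its loader (1 of 6). The last 4 shares lay between 16.7% and 28.6%, on either side of the 20.8% of all genes. Differences between the classes were not tested, and classes of 3 to 11 genes differ easily by a gene or so.

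**Figure D1:**
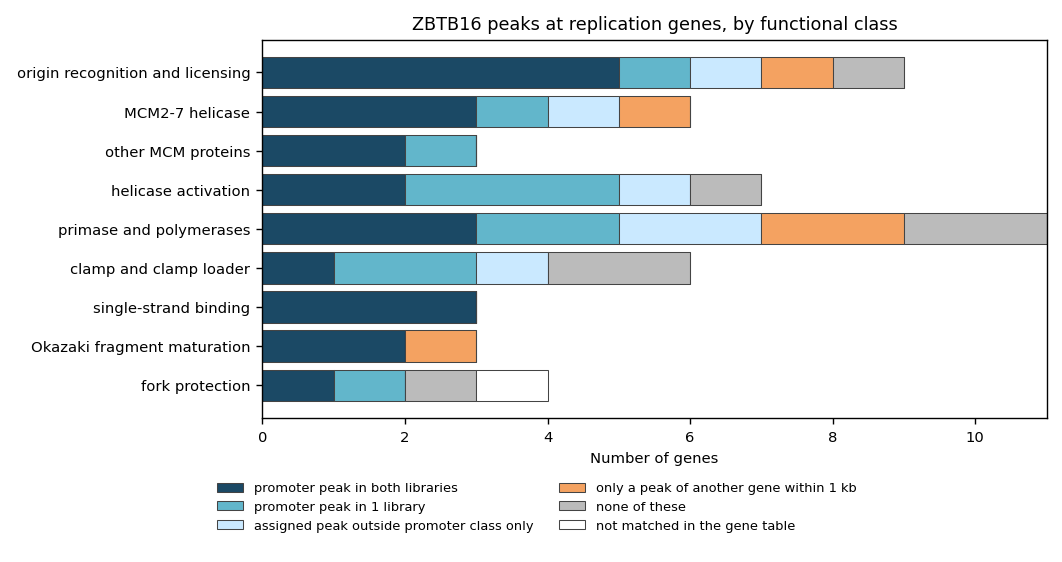
Number of replication genes per functional class (horizontal axis, genes), coloured by the kind of ZBTB16 peak found. The dark segments are the 22 bound genes; single-strand binding is dark throughout with 3 of 3, while the clamp and clamp loader have 1 of 6.

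ORC6, a subunit of the origin recognition complex, had the strongest peak of all 52 genes. Its fold was 10.5 in replicate 1 and 8.999 in replicate 2, with 42 fragments (30.3 to 56.8) and 35 fragments (24.4 to 48.7) at the summit. The peak lay on chromosome 6, at 37943538 to 37944344 in replicate 1, and spanned the TSS. By the lower of its percentiles among the promoter peaks of each library, ORC6 ranked 38th of the 3439 bound genes. The intervals of the libraries overlapped widely.

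Among the other licensing genes, ORC3 followed with folds of 7.18 and 7.32, each from 22 fragments (13.8 to 33.3). GMNN, which encodes geminin, the inhibitor of CDT1, had folds of 6.45 and 7.56, each from 25 fragments (16.2 to 36.9). ORC1, the largest ORC subunit, had 5.56 and 5.21, from 20 and 15 fragments. At ORC3 and GMNN the libraries thus gave equal fragment counts. ORC2 had 4.91 and 5.87 from 14 fragments in each library and was the weakest bound gene of the class in replicate 1. In all, 4 of 6 ORC subunits were bound. ORC5 had its promoter peak in replicate 1 alone (4.89, 13 fragments). ORC4 had no assigned peak, but a peak over its lower end on chromosome 15 (4096243 to 4097011 in replicate 1) was assigned to its neighbour MBD5, with folds of 7.77 and 6.75. Neither of the other helicase loaders was bound: CDC6 had a peak in its 5′ UTR in both libraries (5.91 and 4.59), starting 1813 bp and 1939 bp downstream of the TSS, and CDT1 had none within 1 kb. The nearest peak to CDT1, 2444 bp away in replicate 1, lay at the promoter of APRT.

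For the MCM2 to MCM7 helicase, the ring that unwinds DNA at the fork, MCM3 led with folds of 8.14 and 6.22 from 36 fragments (25.2 to 49.8) and 21 fragments (13.0 to 32.1). Its summit lay 12 bp upstream of the TSS in both libraries (chromosome 7, peak at 46104051 to 46104880 in replicate 1). MCM6 had 7.40 and 5.31, from 23 and 14 fragments. At MCM5, which lies on an unplaced scaffold, the fold was 4.04 in replicate 1 and 5.86 in replicate 2, although the fragments were nearly equal at 16 and 17. The recovered background there was 3.21 fragments in replicate 1 and 2.07 in replicate 2. The remaining 3 subunits each fell short of the criterion in another way. MCM4 had a promoter peak in replicate 1 only (4.63, 18 fragments). MCM2 had a 5′ UTR peak in replicate 2 only (4.08, 13 fragments), 276 bp downstream of the TSS. MCM7 had no assigned peak, but a peak 91 bp from its upper end in replicate 1 and 254 bp in replicate 2 was assigned to AP4M1, with folds of 4.78 and 4.63 from 28 and 23 fragments.

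The MCM proteins outside the ring were also covered. MCM10, which acts in origin firing, had folds of 7.33 and 6.43 from 26 and 17 fragments. MCM9, a helicase of homologous recombination, had 7.53 and 4.74 from 30 and 15 fragments. Its summits lay 367 and 374 bp downstream of the TSS, farther inside the gene than at any other bound gene of the list. MCM8, the partner of MCM9, had a promoter peak in replicate 1 only (4.47, 12 fragments).

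Of the genes that turn the loaded ring into an active helicase, CDC7 and GINS2 were bound. CDC7, the catalytic subunit of the kinase, had folds of 5.89 and 4.81 from 17 and 13 fragments. Its activator DBF4 had a promoter peak in replicate 2 (4.37, 12 fragments). In replicate 1 an overlapping peak (4.17, 16 fragments) was assigned to SLC25A40, whose TSS is close by, so DBF4 did not count as bound. GINS2 had 5.72 and 6.03 from 17 and 14 fragments, with the summit 148 bp upstream of the TSS in both libraries. It was the bound member of the 4 GINS genes. GINS4 had a promoter peak (6.11, 18 fragments) and GINS3 a 5′ UTR peak (5.03, 13 fragments) in replicate 1 only, and GINS1 had none. CDC45 had a promoter peak in replicate 1 only (4.20, 16 fragments).

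None of the 4 genes of polymerase alpha and primase, which lay down the primers, was bound. PRIM1, the catalytic primase subunit, had a promoter peak in replicate 1 only (4.39, 11 fragments), and POLA1 and PRIM2 had none. POLA2 had a 5′ UTR peak in replicate 2 (5.80, 15 fragments). Polymerase delta, the lagging strand polymerase, had 2 of its 3 listed subunits bound. POLD2 had folds of 6.74 and 5.69 from 32 and 21 fragments, and POLD3 had 4.95 and 4.26 from 13 and 10 fragments, the fewest of any bound gene on the list. The catalytic subunit POLD1 had a promoter peak in replicate 1 only, with the lowest fold of any promoter peak on the list (3.76, 16 fragments).

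Polymerase epsilon, the leading strand polymerase, had 1 of 4 subunits bound by the criterion. This was POLE2, with 4.85 and 5.26 from 14 and 12 fragments. POLE4 had peaks in both libraries that began 20 and 104 bp downstream of the TSS and so were classed as 5′ UTR and exon (5.74 and 5.82, from 17 and 16 fragments). POLE3 had a peak over its upper end that was assigned to LOC110256105, with folds of 8.05 and 6.57 from 29 and 20 fragments. The peak nearest to the catalytic subunit POLE, assigned to PXMP2, lay 69 bp from the lower end of POLE and was found in replicate 1 only (5.92, 19 fragments).

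PCNA, the sliding clamp, had folds of 6.43 and 5.94 from 32 fragments (21.9 to 45.2) and 20 fragments (12.2 to 30.9). None of the 5 genes of RFC, the clamp loader, was bound. RFC2 came closest: its replicate 1 peak began 27 bp downstream of the TSS and was classed as 5′ UTR (5.33, 14 fragments), and its replicate 2 peak was a promoter peak (4.68, 10 fragments). Among the replication genes with a promoter peak in replicate 1 only, RFC5 had the highest such peak (6.44, 21 fragments). RFC3 had an exon peak in replicate 1 only (4.81, 12 fragments), 179 bp downstream of the TSS. RFC1, the large subunit, and RFC4 had none.

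By the main criterion the RPA genes were bound without exception. RPA3 had folds of 7.12 and 6.10 from 26 and 17 fragments, RPA2 had 6.82 and 5.02 from 17 and 11, and RPA1 had 4.81 and 5.69 from 14 in each library. RPA1 was thus higher in fold in replicate 2, and the smaller subunits in replicate 1. In Okazaki fragment maturation, FEN1, the flap endonuclease, had 7.68 and 5.05 from 27 fragments (17.8 to 39.3) and 11 fragments (5.49 to 19.7). RNASEH2A, the catalytic subunit of RNase H2, had 4.74 and 5.38 from 26 and 22 fragments. LIG1, the ligase that seals the fragments, had no assigned peak, but a peak over its upper end was assigned to C6H19orf68, with folds of 6.38 and 5.76 from 28 and 24 fragments. Of the fork protection genes, CLSPN, which encodes the checkpoint adaptor claspin, had 8.89 and 6.58 from 32 fragments (21.9 to 45.2) and 22 fragments (13.8 to 33.3). It was the second highest fold on the list in replicate 1. TIPIN had a promoter peak in replicate 1 only (6.07, 15 fragments), WDHD1 had none, and TIMELESS was not matched in the gene table or in the peak lists.

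**Figure D2:**
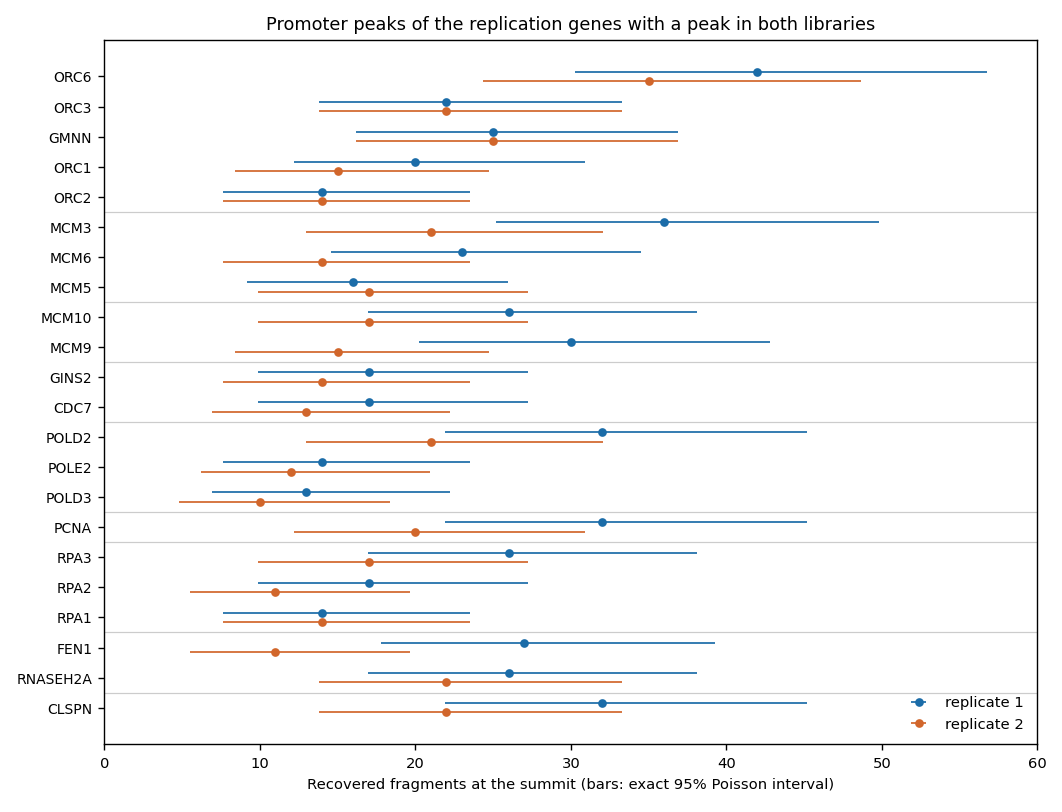
Recovered fragments at the summit of the promoter peak (horizontal axis, fragments) for the 22 bound replication genes, grouped by class, with exact 95% Poisson intervals as bars. ORC6 stands highest in both libraries at 42 and 35 fragments, and the intervals of the libraries overlap for every gene.

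In height, the bound replication genes lay slightly above the bound genes as a whole. Their median fold was 6.60 in replicate 1 and 5.78 in replicate 2, against 5.85 and 5.45 over all 3439 bound genes. Their median summit fragments were 24 and 16 against 22 and 17, so in fragments the order differed between the libraries. Of the 22 genes, 16 lay above the median fold of all promoter peaks in replicate 1 and 16 in replicate 2, as did 2216 and 1925 of the 3439 bound genes. The fold was higher in replicate 1 at 14 genes and in replicate 2 at 8. Over all bound genes it was higher in replicate 1 at 2168 and in replicate 2 at 1271.

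Whether single genes differed between libraries was tested on the summit fragments. Over all bound genes 56.8% of the fragments came from replicate 1, and each gene's split was set against that share by a two-sided exact binomial test with Benjamini-Hochberg adjustment over the 3439 genes. None of the 22 replication genes passed, nor did any other gene (0.0% called). At an unadjusted p under 0.05 the counts were 0 of 22 replication genes and 43 of 3439 genes (1.25%). FEN1 was the least even replication gene, with 71.1% of its fragments in replicate 1 (exact 95% interval 54.1 to 84.6, unadjusted exact binomial p = 0.100, adjusted p = 1). A peak had to pass in both lists to enter, which narrows the spread. With 23 to 77 fragments per gene in both libraries together, moderate differences were not detectable at this depth.

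**Figure D3:**
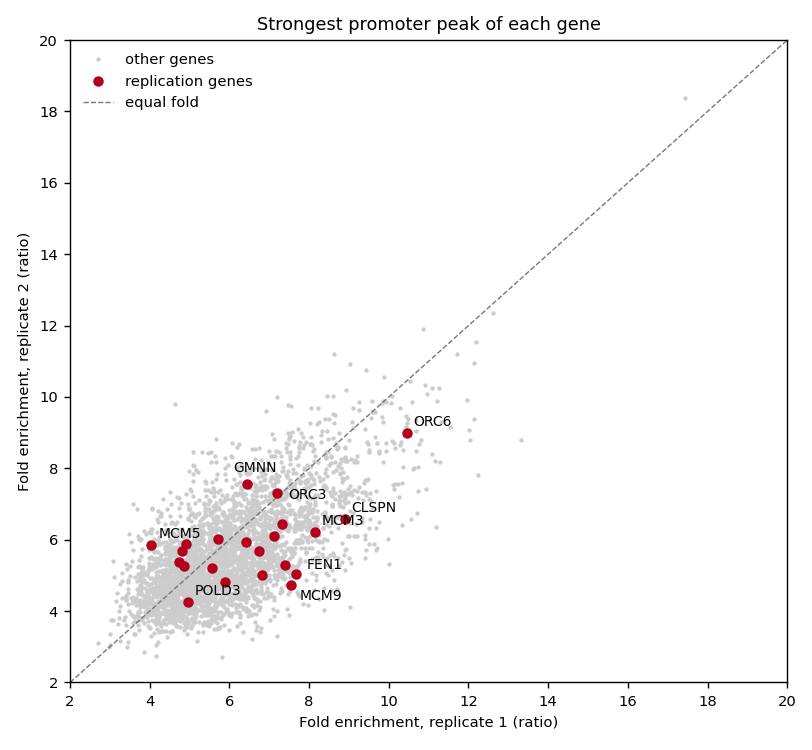
Fold enrichment of the strongest promoter peak of each bound gene in replicate 1 (horizontal axis, ratio) and replicate 2 (vertical axis, ratio); grey points are other genes, red points the 22 replication genes. ORC6 lies near the upper end of the cloud at 10.5 and 8.999, while FEN1 and MCM9 lie below the line of equal fold and GMNN and MCM5 above it.

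The peaks of the bound replication genes sat on the start site. All 22 spanned the TSS in replicate 1 and 19 of 22 (86.4%) in replicate 2, against 86.9% and 84.2% of all bound genes. Summits lay within 200 bp of the TSS at 19 of 22 genes (86.4%) in replicate 1 and at 17 (77.3%) in replicate 2. Over all bound genes these shares were 63.7% and 64.0%. At the median, replicate 1 summits were 21.5 bp downstream of the TSS and replicate 2 summits 1 bp upstream, where all bound genes had medians of 59 and 57 bp upstream. Of the 22 summits, 6 were upstream in replicate 1 and 11 in replicate 2, against 2064 and 2047 of the 3439 bound genes. Peaks were 750 bp wide at the median in replicate 1 and 635 bp in replicate 2, against 662 and 550 bp over all bound genes. These differences were not tested. Since a promoter peak had to span the TSS or lie upstream of it, the criterion itself limits where the summits can fall. It applied alike to the replication genes and to all bound genes.

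**Figure D4:**
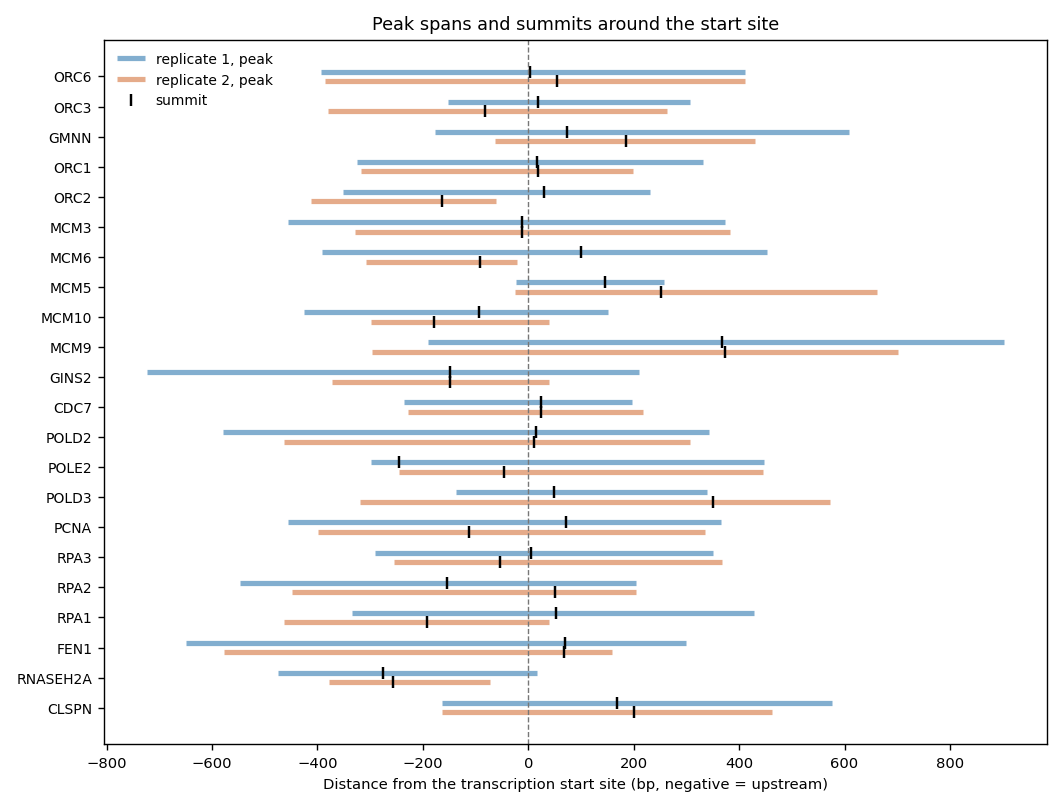
Extent of each promoter peak (coloured bars) and its summit (black ticks) relative to the TSS (horizontal axis, bp, negative upstream) for the 22 bound replication genes. Most bars cross the TSS at 0; the replicate 2 peaks of MCM6, ORC2 and RNASEH2A end upstream of it, and the summits of MCM9 lie 367 and 374 bp downstream.

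The position of the summit was repeatable at some genes and not at others. The promoter peaks of the libraries overlapped at 22 of 22 genes, and their summits were within 100 bp of each other at 11, with a median gap of 80.5 bp. Over all bound genes the peaks overlapped at 98.2%, the summits were within 100 bp at 52.2%, against 50.0% of the replication genes, and the median gap was 93 bp. At MCM3 and GINS2 the summits fell on the same base, at CDC7 they were 1 bp apart, at ORC1 and FEN1 2 bp, at POLD2 5 bp and at MCM9 7 bp. The widest gap was at POLD3, at 302 bp, where the summits rested on 13 and 10 fragments.

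Promoter peaks found in replicate 1 only belonged to 9 replication genes: MCM4, MCM8, ORC5, CDC45, GINS4, PRIM1, POLD1, RFC5 and TIPIN. They had 11 to 21 fragments at the summit and folds of 3.76 to 6.44, and no replicate 2 peak overlapped any of them. Promoter peaks of these heights recurred only in part among all genes, and more often the higher they were. Among all replicate 1 promoter peaks within 1 fragment of the same height, a share overlapped a replicate 2 peak. This share was 31.0% at the 11 fragments of PRIM1, 35.7% at the 12 of MCM8 and 40.8% at the 13 of ORC5. It was 52.2% at the 15 of TIPIN and 58.3% at the 16 of CDC45 and POLD1. At the 18 of MCM4 and GINS4 it was 69.1%, and at the 21 of RFC5 76.6%. Some bound genes had no higher peaks in replicate 1, such as POLD3 with 13 fragments and ORC2, POLE2 and RPA1 with 14. A missing replicate 2 peak at these heights does not show that binding was absent. With a promoter peak in replicate 1 alone required, 31 of 52 genes qualified (59.6%, against 32.8% of all genes), and with replicate 2 alone 24 (46.2%, against 24.9%). Of the 31, 22 were bound, as were 3439 of all 5415 genes with a promoter peak in replicate 1. This difference was not tested.

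**Figure D5:**
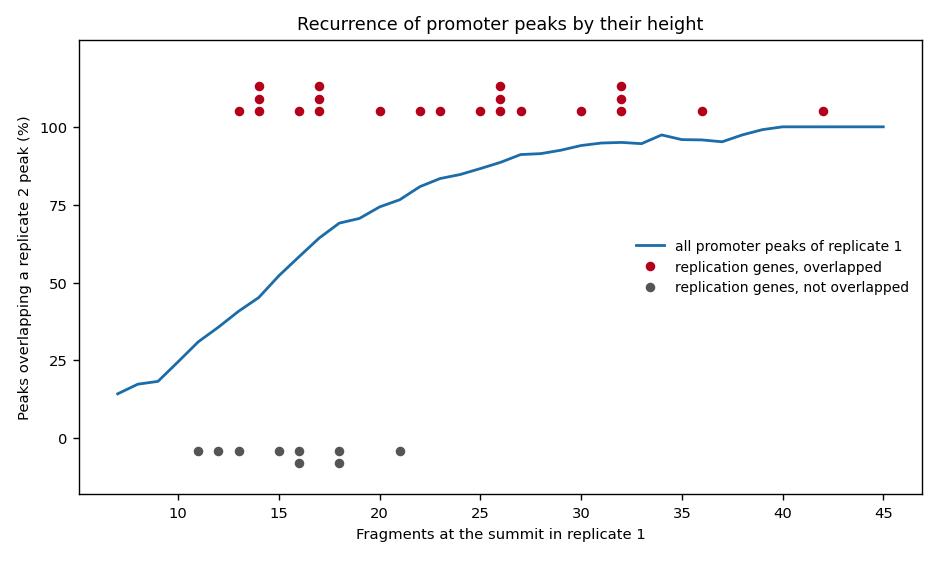
Share of replicate 1 promoter peaks that overlapped a replicate 2 peak (vertical axis, percent) by fragments at the summit (horizontal axis; each value pools peaks within 1 fragment). Dots above the line are promoter peaks of replication genes that were overlapped and dots below those that were not; the latter all lie between 11 and 21 fragments.

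Because each peak was given to 1 gene only, the criterion misses promoters shared with a neighbour. A peak within 1 kb of either end of the gene, whatever gene it was assigned to, was present in both libraries at 27 of the 50 replication genes on placed chromosomes (54.0%), against 29.3% of all such genes. This adds ORC4, MCM7, POLE3, LIG1, DBF4, POLE4 and RFC2 to the bound genes. It leaves out MCM5, on its scaffold, and CLSPN, whose TSS in the peak lists lies far inside the gene's extent in the RefSeq table. RNASEH2A enters through a peak of PRDX2 near its upper end, not through its own. Its TSS in the peak lists (66205130, minus strand) also lies inside the RefSeq extent, whose upper end is 66208417. The converse also holds: 5 of 21 bound replication genes on placed chromosomes (23.8%, against 20.3% of all bound genes) had another protein-coding gene ending or starting within 1 kb of their TSS. These were ORC3 with RARS2 at 38 bp, RPA1 with SMYD4 at 46 bp, RPA3 with UMAD1 at 73 bp, FEN1 with TMEM258 at 107 bp and ORC6 with VPS35 at 149 bp. At these a peak cannot be credited to either gene alone, which includes the strongest peak of the list.

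Genes with no assigned peak in either library made up 13 of the 52, where 49.3% of all genes had none. The other 39 had a peak of some class in either library, against 50.7% of all genes, and 27 had one in both, against 28.2%. Of the 13 without an assigned peak, 5 had a neighbour's peak as described above (ORC4, MCM7, POLE3, LIG1 and, in replicate 1 only, POLE). The other 7 in the gene table were CDT1, GINS1, POLA1, PRIM2, RFC1, RFC4 and WDHD1, and the last was the unmatched TIMELESS. POLA1 was the replication gene on the X chromosome.

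Genes that work beside the core machinery were counted in 4 further lists. By the same criterion 20.8% of all genes were bound, and the shares of the lists lay on either side of it. Of 12 genes of nucleotide supply, 8 were bound (66.7%). They included RRM2B, a small subunit of ribonucleotide reductase (7.72 and 8.36), DUT, the dUTPase (6.10 and 5.85), and DCTPP1 (5.21 and 5.74). Of 12 genes of chromatin assembly at forks, 5 were bound (41.7%): the histone chaperones ASF1B (7.74 and 8.46), NASP (8.11 and 6.64) and CHAF1B (4.89 and 5.83), the histone-binding RBBP4 (7.05 and 6.61), and DNMT1, the maintenance DNA methyltransferase (7.05 and 7.72). Of 33 other replication factors, 10 were bound (30.3%), led by HELB (7.36 and 7.93), SMARCAL1, a fork remodeller (7.95 and 7.05), ETAA1, an activator of the ATR kinase (6.93 and 6.65), and RIF1 (5.88 and 6.07). Of 19 E2F and DREAM genes, which regulate transcription of replication genes, 3 were bound (15.8%), namely E2F3 (6.01 and 6.45), RBL1 (4.58 and 4.70) and E2F2 (4.60 and 4.24). No test was made between these lists.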

How the data were processed

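The members and lists were chosen with earlier results of these data known. The authors deposited 1 annotated peak list per library, called per library. Per the submitters' processing notes the build was Sscrofa11.1. For the aligner, peak caller, control and annotation tool, the sources used here name none. Per the file headers, each peak has −log10 q-value, −log10 p-value, a fold enrichment (a linear ratio over local background) and a score, deposited as 10 times the −log10 q and not used. Each list went down to a −log10 q-value of 1.31. Deposited promoter peaks had distances of −2995 to 0 bp, so peaks that began just downstream were listed otherwise.

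The sources used here state no sequencing depth. Summit fragments and background were solved per peak from fold = (fragments + 1)/(background + 1) together with the p-value as the upper tail of a Poisson distribution. A whole number was accepted within 1e-05 (relative), which all peaks met (100%). The lowest background was 1.21 in replicate 1 and 0.979 in replicate 2, a ratio of 1.23 that stands in for relative depth. The recovery and the binomial test were tested on simulated data.

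Genes were protein-coding genes with a symbol other than a LOC number in the RefSeq table for Sscrofa11.1; 51 of 52 members matched. Where a gene had several promoter peaks, that of highest fold was used. Files name chromosomes X and Y as 19 and 20. The table gives no strand, so nearness was measured to either end of a gene and not, as planned, to its start. All 52 members are accounted for, and other lists by their count and up to 4 bound genes of the highest lower fold; CHAF1B was added as the last of its 5 and named after its values were seen. A gene that this rule would name is not reported here. No enrichment test was run on the lists. Motif searches in promoters were not run. Alternatives are in the closing section. The software was scipy 1.17.1, pandas 2.3.3 and numpy 2.4.6 under Python 3.11.15, with figures by matplotlib 3.10.9.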

Additional observations from a re-analysis of the deposited data

How the results depend on the processing

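The count of 22 bound genes stayed within 1.5 times under 9 of 10 alternatives, from 17 when the promoter peaks had to overlap by 50% of each to 31 without replicate 2. It was 27 with any assigned peak and with any peak within 1 kb of either gene end. It was 22 with a −log10 q of at least 2, with promoter peaks within 1 kb and with 1 bp of overlap, and 21 with equal list lengths. Leaving out 1 library gave 24 to 31. With peaks above the median fold only it was 14 (26.9%, against 11.6% of all genes), and other MCM proteins, helicase activation, primase and polymerases, and Okazaki fragment maturation fell to 1 each. With 50% overlap the MCM2 to MCM7 helicase and helicase activation had 1 each (17.6% of all genes). RPA1 dropped out under each of these 2 settings, which left 2 of 3 RPA genes. With any assigned peak (28.2% of all genes), primase and polymerases had 5 (45.5%) and the clamp and its loader 2 (33.3%). Both counts were the same with any peak within 1 kb of either gene end (29.3% of all genes). By the latter setting, fork protection had 0. Leaving out 1 library gave 3 to 4 for helicase activation, 3 to 5 for primase and polymerases, 2 to 2 for the clamp and its loader and 1 to 2 for fork protection. The shares of all genes were then 24.9% without replicate 1 and 32.8% without replicate 2. The order of the small classes therefore depends on these settings. The median fold of the bound genes was 8.26 in replicate 1 and 8.17 in replicate 2 when fragments were divided by background with nothing added. The count of genes with an uneven split was 0 under both alternatives, though only 1 member had at least 60 fragments. Near either gene end, 27 genes at 500 bp (27.3% of all genes) and 29 at 3 kb (33.2%) had peaks in both libraries. Within 1 kb the count was 29 without replicate 1 and 40 without replicate 2. For such peaks in a single library no share of all genes is given here. These 2 counts therefore cannot be set against the shares for both libraries. No paired analysis was possible because the libraries form 1 group. Depth limits single peaks: the bound genes rested on 10 to 42 fragments per library.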

Other observations

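Some replication genes had recurrent peaks away from their start site. POLA2, the regulatory subunit of polymerase alpha, had an intronic peak in both libraries on chromosome 2 (6927248 to 6927685 in replicate 1), 22.6 kb downstream of the TSS there, with folds of 3.51 and 5.63 from 13 and 18 fragments. It also had an intergenic peak 6.87 kb upstream in replicate 1 (6.40, 17 fragments) and 6.58 kb upstream in replicate 2 (4.68, 10 fragments), and these overlapped. MCM2, which had no peak of the promoter class, had overlapping intergenic peaks 4.62 and 4.39 kb upstream of the TSS. Their folds were 4.19 and 4.31, each from 18 fragments. Within the extent of MCM9 lies ASF1A, a histone chaperone of replication forks, with a 5′ UTR peak of its own in both libraries (4.56 and 4.27, from 18 and 13 fragments). PCNA has TMEM230 as a neighbour, whose promoter peak was also found in both libraries (5.82 and 5.06).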
